A study of Mus musculus with 2 samples.

Results

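Transcripts of 8 upstream regulators of head muscle and of the Six-Eya network were examined in mouse fetal palate: Six2, Six4, Eya1, Eya2, Eya4, Tcf21, Msc and Tbx1. They were taken as every probe set that the platform annotation assigns to exactly 1 of these genes, which gave 17 of the 45101 probe sets on the array. Palate was collected at E18.5 (embryonic day), and total RNA was hybridised to Affymetrix expression arrays, with 1 array per genotype. Both groups were on the BALB/c background. One was wild type and the other was labelled as null for Myf5 and for MyoD (Myod1), the basic helix-loop-helix factors that commit cells to skeletal muscle. Pooling of fetuses, the extent of each deletion and the dissection are not described in the labels. The series asks what skeletal muscle contributes to palate development. There were no replicates, so all differences are between single arrays and none was tested.

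In the head, muscle precursors arise from mesoderm under regulators that act ahead of the myogenic factors. Tbx1, a T-box factor, and the related basic helix-loop-helix factors Tcf21 (capsulin) and Msc (MyoR) act in the branchial mesoderm that forms jaw, pharyngeal and palate muscles. Six-family homeodomain proteins bind DNA at sites called MEF3, and Eya proteins, which do not bind DNA themselves, join them as coactivators and carry phosphatase activity. None of these genes belongs to muscle alone: Six2 marks mesenchyme, and Eya1, Eya4 and Six4 are also used in sensory placodes, ear and nervous system.

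By the RefSeq gene table of GRCm38.p6, the 8 genes include pairs of neighbours. Eya1 and Msc lie on one chromosome with 0 protein-coding genes between them, and so do Eya4 and Tcf21. Six2 lies next to Six3, again with 0 protein-coding genes between. The deposited values carry no genome build, so the probe sets are not placed on the genome, and the coordinates given below are those of RefSeq's promoter windows.

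Promoter windows of 300 bases (250 before and 50 after a transcript start, so that negative positions lie before it) were available from RefSeq (GRCm38.p6) for 5 of the 8 genes, as 8 windows. They were searched on both strands for the E-box CANNTG, which Myf5 and MyoD bind, its form CAGCTG, the letters TCAGGTT of a MEF3 site and the letters AGGTGT of a T-box half-site. The windows with any match are shown because they hold the letters read by Myf5 and MyoD, by Six-family proteins or by Tbx1's own family. Matches are in capitals. Of the 2 overlapping windows of Eya4, which share 1 E-box, 1 is shown.

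Six4 promoter, chr12:73113196-73113495, minus strand: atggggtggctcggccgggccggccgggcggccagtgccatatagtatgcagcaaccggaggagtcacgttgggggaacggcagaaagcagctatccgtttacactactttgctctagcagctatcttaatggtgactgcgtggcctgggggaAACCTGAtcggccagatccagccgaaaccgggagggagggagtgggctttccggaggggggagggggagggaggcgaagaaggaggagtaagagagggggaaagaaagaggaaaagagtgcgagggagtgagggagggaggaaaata

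Eya4 promoter, chr10:23349894-23350193, minus strand: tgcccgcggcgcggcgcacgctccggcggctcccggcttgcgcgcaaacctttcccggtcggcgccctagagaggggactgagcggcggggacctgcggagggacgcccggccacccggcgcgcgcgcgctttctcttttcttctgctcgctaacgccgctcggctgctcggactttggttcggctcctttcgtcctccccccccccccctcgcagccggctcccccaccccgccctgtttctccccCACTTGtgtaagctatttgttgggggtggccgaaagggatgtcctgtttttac

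Tbx1 promoter, chr16:18590622-18590921, minus strand: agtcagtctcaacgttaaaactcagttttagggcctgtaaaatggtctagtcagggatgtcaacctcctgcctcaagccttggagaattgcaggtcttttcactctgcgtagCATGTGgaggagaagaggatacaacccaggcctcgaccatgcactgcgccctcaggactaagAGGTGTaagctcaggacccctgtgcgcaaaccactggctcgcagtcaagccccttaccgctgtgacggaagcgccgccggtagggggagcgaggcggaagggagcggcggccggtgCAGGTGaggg

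The Six4 window held 1 MEF3 match, written AACCTGA on this strand, at position -97 from the transcript start. The Eya4 window held 1 E-box, CACTTG, at position -3. The Tbx1 window held 2 E-boxes, CATGTG at position -138 and CAGGTG at position 41, and 1 T-box half-site at position -76. No window held CAGCTG. The other windows of Six4 and Tbx1 and those of Six2 and Tcf21 held none of these letters. Among all 32851 RefSeq windows of the same length, 72.3% held an E-box, 16.3% CAGCTG, 4.07% the MEF3 letters and 13.7% the T-box letters. A match describes letters in the window and is no evidence of binding.

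Signals below are the authors' MAS5 intensities, scaled here so that bright probe sets had the same median on both arrays. Those under 287, the 40th percentile, were set to that floor before ratios were taken. A probe set was taken as measured when at least 1 of its signals was 658 (the 60th percentile) or more. Each log2 ratio has wild type as its denominator. As a yardstick, probe sets of the same gene differed in log2 ratio with a pooled SD of 0.51 (10190 measured probe sets of 4030 genes), a spread that says nothing of variation among fetuses.

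The 8 genes did not move as a block. Of 17 probe sets 10 were measured, 5 were under the floor on both arrays and 2 crossed the floor without reaching the measured level. Taking for each gene the probe set brightest on average over both arrays, 6 genes were measured. Of these, Eya1, Eya4 and Msc had the higher signal on the array labelled double null, and Six2, Six4 and Tbx1 the lower. None of the 6 reached 2-fold in either direction, against 4.22% (lower) and 3.51% (higher) of all 11238 measured genes. Their median log2 ratio was 0.08, beside 0.07 over all measured genes. Of the 10 measured probe sets 6 were higher and 4 lower, and 1 of them, of Eya1, was at least 2-fold higher, against 3.68% higher and 4.52% lower of all 17407 measured probe sets.

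**Figure D1:**
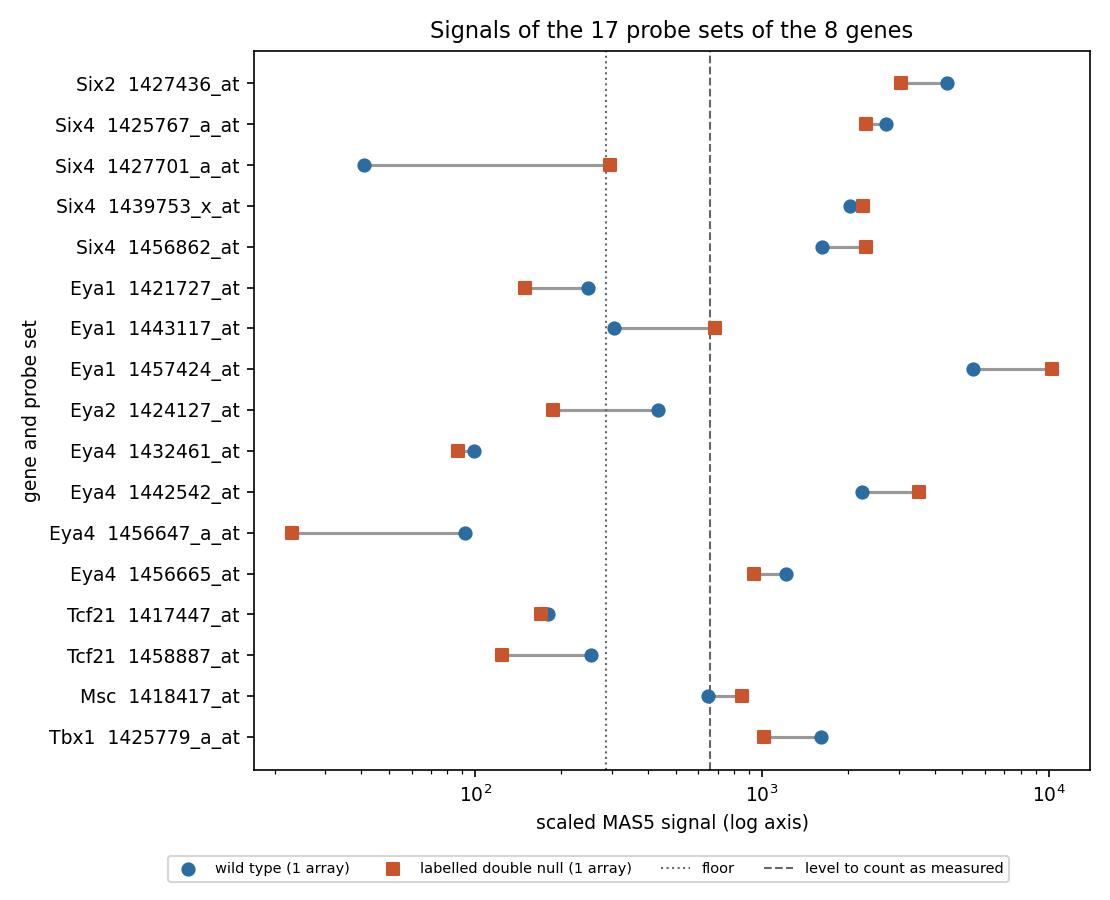
Scaled MAS5 signal (horizontal log axis) of the 17 probe sets of the 8 genes, with circles for the wild-type array and squares for the array labelled double null; vertical lines mark the floor (287) and the level to count as measured (658). Both probe sets of Tcf21 lie under the floor on both arrays, and the brightest Eya1 probe set lies further right on the array labelled double null (5442 and 10239).

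The second array is called the array labelled double null because Myf5 and Myod1 themselves were similar on both. The brighter Myod1 probe set gave signals of 1938 (wild type) and 1663, and the only Myf5 probe set, below the measured level, gave 517 and 531. Whether these probe sets lie in the deleted sequence is not known here. Markers of cell types also differed between the samples. All 10 skeletal muscle markers were measured, their summed signal was 166716 and 88131, and 5 were at least 2-fold lower. On the array labelled double null they ranged from 434 (Des) to 23430 (Acta1), so skeletal muscle signal was still present there. All 8 neuronal markers were measured, their summed signal was 48892 and 114632, and 5 passed 2-fold upward. Of 8 olfactory and placodal markers 6 had a probe set, with summed signals of 7028 and 9727, and 2 were at least 2-fold higher. The 8 mesenchymal fibroblast markers summed to 336896 and 355230, with Dpt alone past 2-fold (lower). None of the markers of these 4 lists that had a probe set was under the floor on either array. In whole palate, fewer cells of a type and less RNA per cell cannot be told apart.

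Among the Six-family factors, Six2, a homeodomain factor of palatal and other craniofacial mesenchyme, had a single probe set (1427436_at). Its signal was 4411 in wild type against 3040 on the other array, which is a log2 ratio of -0.54 (1.45-fold lower), about as large as the SD between probe sets. A larger absolute ratio was found in 28.0% of measured genes. The floors, filters and choices of probe set could not change the ratio of this single bright probe set. Under the other scalings and the offset Six2 was lower, with ratios from -0.67 to -0.22.

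Six4, a homeodomain factor of muscle precursors, had 4 probe sets that gave no common direction. The brightest (1425767_a_at) gave 2702 and 2299, a log2 ratio of -0.23. The next (1439753_x_at) gave 2022 and 2250, a ratio of 0.15. The third (1456862_at) gave 1622 and 2313, a ratio of 0.51. These measured probe sets thus spanned 0.75 on the log2 scale and averaged 0.14. The last (1427701_a_at) was not measured, with 41.0 and 295. The gene's direction depended on the choice of probe set and on the scaling. It was lower in 10 of 13 alternative settings, but the floors and filters among these left its ratio unchanged. The ratio became 0.51 when probe sets with the suffixes a, s or x, which mark probes shared between transcripts or genes, were left out. It became 0.14 as the mean of probe sets and 0.08 with scaling on reference-gene signal.

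Among the Eya coactivators, Eya1 had the highest ratio of the 6 measured genes. Its brightest probe set (1457424_at) gave 5442 in wild type against 10239 on the other array, or 0.91 on the log2 scale (1.88-fold higher). A second, dimmer probe set (1443117_at) gave 304 and 684, a ratio of 1.17 (2.25-fold higher). Both measured probe sets were therefore higher, by 1.77 and 2.27 times the SD between probe sets. The wild-type signal of the second lay just above the floor, and raising the floor to the 60th percentile took its ratio to 0.06. The third probe set (1421727_at) was under the floor on both arrays, at 247 and 150. A larger absolute ratio than that of the brightest probe set was found in 9.78% of measured genes. The floors, the filters and leaving out suffixed probe sets did not change the ratio of the brightest probe set. Under the other scalings, the offset and the mean of probe sets Eya1 was higher, from 0.78 to 1.23. It passed 2-fold in 2 of these, with scaling on reference-gene signal (1.23) and as the mean of probe sets (1.04). That scaling has a limit given in the last section, and that mean includes the second probe set.

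Eya4, a family member known for its role in hearing, had 2 measured probe sets of opposite direction. The brighter (1442542_at) gave 2228 and 3527, a log2 ratio of 0.66 (1.58-fold higher). The dimmer (1456665_at) gave 1210 and 937, a ratio of -0.37. They differed by 1.03 on the log2 scale, and their mean was 0.15. The remaining probe sets (1432461_at and 1456647_a_at) were under the floor on both arrays, at 99.1 and 87.2 and at 91.9 and 23.1. The higher value for Eya4 thus rests on the brighter probe set: it ran from 0.15, the mean of probe sets, to 0.98 over 13 alternative settings.

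Eya2, the coactivator paired with Six-family factors in muscle precursors, was not measured. Its 1 probe set (1424127_at) gave 435 in wild type against 186, under the floor, on the array labelled double null, which is at least 1.52-fold lower. Its neighbour in the family, Eya3, is given with the relatives below.

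Eya1, Eya4 and Six4 are also transcribed in neural and placodal tissue. The neuronal and olfactory markers given above had higher summed signals on the same array as Eya1 and the brighter probe set of Eya4. Lower there were the dimmer Eya4 probe set (-0.37), the brightest Six4 probe set (-0.23) and the olfactory marker Adcy3 (-0.25). The other measured Six4 probe sets were higher (0.15 and 0.51), as were 5 of 6 olfactory and placodal markers. The part of neural and placodal tissue in the Eya and Six4 ratios was not tested.

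Among the factors of branchial mesoderm, Tbx1 had a single probe set (1425779_a_at). It gave 1608 in wild type against 1016 on the other array, which is -0.66 on the log2 scale (1.58-fold lower), the lowest of the 6 measured genes. A larger absolute ratio was found in 20.1% of measured genes, the same share as for Eya4. The floors, the filters and the mean of probe sets could not change the ratio of this single probe set. Leaving out suffixed probe sets gave no value, since it carries the suffix a. Under the other scalings and the offset Tbx1 was lower, from -0.79 to -0.35. Tbx1 is also transcribed in oral and dental epithelium. Of the 7 stratified epithelium markers, all measured, 2 were at least 2-fold lower and none higher, with summed signals of 104957 and 60036. In 6 of them the ratio was below 0, and Trp63 gave 9893 and 10532 (0.09). The part of epithelium in the Tbx1 ratio was not tested.

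Msc, a repressor of the myogenic basic helix-loop-helix factors, had a single probe set (1418417_at) close to the measured level. It gave 646 and 849, a ratio of 0.39 on the log2 scale, under the SD between probe sets, and 41.6% of measured genes had a larger absolute ratio. Its close relative Tcf21 was not measured. One Tcf21 probe set (1417447_at) gave 180 and 169 and the other (1458887_at) 253 and 124, all under the floor, so no ratio is given. Of the neighbouring pairs, Eya1 and Msc were both higher. Six2 stood at -0.54 beside its neighbour Six3 at -0.04 (1330 and 1291). The pair of Eya4 and Tcf21 could not be compared.

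**Figure D2:**
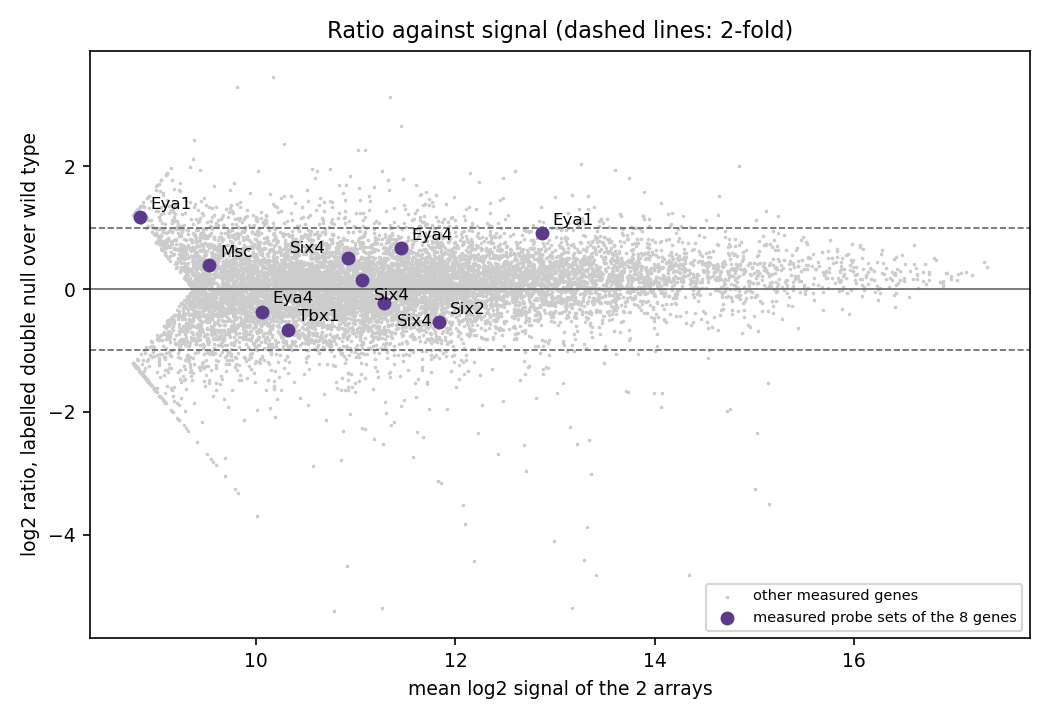
Log2 ratio of the array labelled double null over wild type (vertical) against the mean log2 signal of both arrays (horizontal), for all measured genes (grey) and the 10 measured probe sets of the 8 genes (purple); dashed lines mark 2-fold. All but the dimmer Eya1 probe set (1.17) lie between the dashed lines, and the probe sets of Six4 and of Eya4 lie on both sides of 0 (the brightest Six4 probe set moves to 0.08 with scaling on reference-gene signal).

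**Figure D3:**
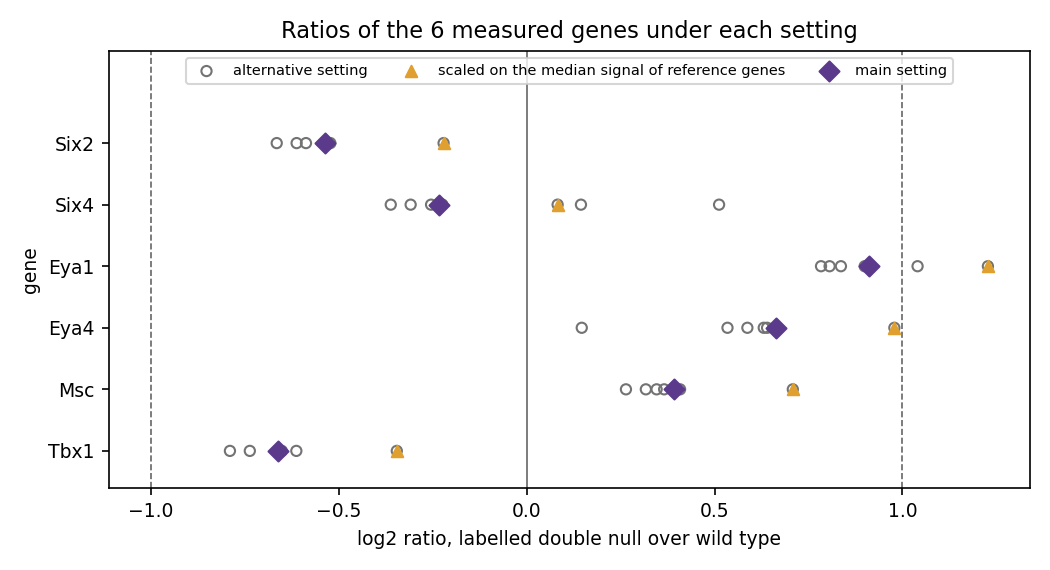
Log2 ratio (horizontal) of the 6 measured genes under the main setting (diamonds), 12 or 13 alternative settings each (circles) and, among these, scaling on reference-gene signal (triangles); dashed lines mark 2-fold. Six4 crosses 0, from -0.36 to 0.51, whereas Six2 and Tbx1 stay below 0 and Eya1, Eya4 and Msc above it. Floors and filters left the ratios of all but Msc unchanged, so those circles coincide.

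Scaling by a constant factor moves the ratios of all genes above the floor by the same amount, whereas quantile normalization does not. With scaling on reference-gene signal the median log2 ratio of all measured genes was 0.40 in place of 0.07. Relative to the median of all measured genes, Eya1 was 0.84 higher, Eya4 0.59 and Msc 0.32, and Tbx1 stood at -0.73, Six2 at -0.61 and Six4 at -0.30. Over the 4 other scalings and the main one, the same difference ran from 0.79 to 0.85 for Eya1, from -0.75 to -0.67 for Tbx1, from -0.62 to -0.60 for Six2 and from -0.32 to -0.27 for Six4.

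Other genes of these pathways were grouped into 6 lists with 69 genes, of which 64 had a probe set and 41 were measured. Of the 41, 4 (9.76%) were at least 2-fold lower and none passed 2-fold upward, against 4.22% and 3.51% of all measured genes. The lists were chosen with earlier results of these data known, so these shares are no independent comparison. The median log2 ratio of the 41 was -0.05. With scaling on reference-gene signal 2 were lower and 3 higher.

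Of the Six-Eya-Dach relatives 4 of 7 with a probe set were measured, none past 2-fold, with a median of -0.20 that turned to 0.12 with scaling on reference-gene signal. Dach1, the nuclear partner of the Six-Eya complex, was the highest, with 540 and 877 (0.70). Six5 was the lowest, with 1628 and 938 (-0.79). Eya3, the most widely transcribed Eya gene, gave 2165 and 1700 (-0.35), and its other measured probe sets had a median of -0.74. Eya3 and Eya1, 2 coactivators of one family, thus differed in direction between the arrays.

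Of 13 genes with a probe set downstream of the Six-Eya complex 9 were measured, with a median of -0.84, and 3 were at least 2-fold lower. Myf6 (MRF4), a myogenic factor whose gene Six-family proteins activate, gave 971 and 446 (2.18-fold lower). Tnnt3, fast skeletal troponin T, gave 11839 and 4815 (2.46-fold lower). Ezr, which encodes the membrane linker ezrin of epithelia, gave 29847 and 3687 (8.10-fold lower), but its other measured probe set had a ratio of 0.35. Sall1, a zinc-finger target of the network in kidney, was the highest at 0.39. The list's median was -0.22 without suffixed probe sets and with no filter. Myf6 and Tnnt3 are muscle genes, as are Myog (-0.99) and Eno3 (-0.84). The list also holds the targeted genes themselves, Myod1 (-0.22) and Myf5 (not measured). Of the 9 measured genes 7 had ratios below 0. The 2 above were Sall1 and Aldoa (0.29, with a median of 0.18 in its other measured probe sets). The skeletal muscle markers above were lower on the same array, and the part of muscle in this median was not tested.

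Of 10 other head muscle precursor regulators with a probe set 7 were measured, with a median of 0.37 and none past 2-fold. All 7 ratios were above 0, but 5 of 7 with the deposited scaling and with scaling on the reference genes' median ratio, under which Meox1 and Meox2 lay below 0. Isl1, a LIM homeodomain factor of branchial and cardiac precursors that is also used in sensory neurons, was the highest, with 2718 and 4749 (0.81). The other measured Isl1 probe set had a ratio of 0.29. Meox1, a homeodomain factor of somites, was the lowest, with 844 and 850 (0.01). Over all measured genes 6330 of 11238 had ratios above 0.

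Among genes that act downstream of or together with Tbx1, 9 of 14 with a probe set were measured, with a median of -0.06 that turned to 0.26 with scaling on reference-gene signal. Cyp26a1, a retinoic acid-degrading enzyme, was the 1 gene past 2-fold, with 3768 and 1490 (2.53-fold lower). Robo1, a guidance receptor, was the highest, with 4201 and 6344 (0.59). The 4 measured of 8 T-box relatives had a median of -0.03, which turned to 0.29 under the same scaling. Tbx18 was the lowest, with 835 and 554 (-0.59), and Tbx15 the highest, with 1772 and 1852 (0.06).

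Of the 12 basic helix-loop-helix relatives and partners of Tcf21 and Msc 8 were measured, none past 2-fold, with a median of 0.10 that lay below 0 in 3 of 13 alternative settings. Id1, which sequesters E-protein partners, gave 2437 and 1666 (-0.55), the lowest. Id4, of the same family, gave 15218 and 19370 (0.35), the highest, with a median of -0.36 in its other measured probe sets.

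**Figure D4:**
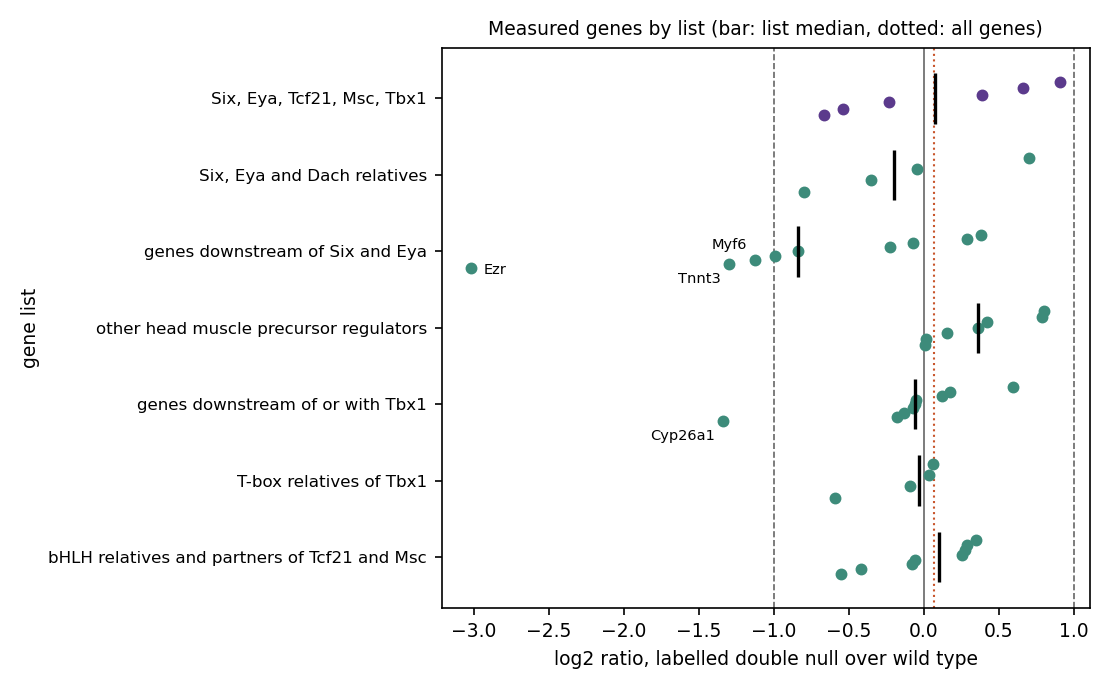
Log2 ratio of the array labelled double null over wild type (horizontal) for each measured gene of the 8 genes (top row, 6 measured) and of 6 lists of related genes; short black bars are list medians, the dotted line the median of all measured genes (0.07) and dashed lines 2-fold. Only Ezr, Tnnt3, Myf6 and Cyp26a1 lie beyond 2-fold, all lower, and the top row spreads from -0.66 to 0.91 on both sides of 0 (Six4 changes side with scaling on reference-gene signal).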

How the data were processed

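Total RNA (6 µg per sample) was labelled as biotinylated cRNA, per the labels' protocols. Per the submitters' processing notes the authors used MAS5 (no version given), and the deposited numbers are linear intensities, 1 per probe set. The trimmed mean (2% at either end) was 1500.01 on both arrays. Control probe sets (64) were left out. Gene names came from the platform annotation (34945 probe sets with 1 gene, 932 with several, 9160 with none listed). All 17 member probe sets had a gene identifier in the RefSeq table of GRCm38.p6, and no symbol differed.

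Arrays were brought to a common median over the probe sets in the upper 50% of both (factors 0.974 for wild type and 1.03 for the other). The floor, the measured level and the choice of probe set are given in the results. A ratio with 1 array under the floor is a lower bound. With 1 array per genotype no test was made: genes were counted at 2-fold, and the number of arrays limits the precision. Named pathway genes were those past 2-fold, the highest and lowest of each list, and Eya3, Dach1, Myf5 and Myod1; list genes without a probe set of their own are not reported here; of the marker lists, Dpt is named because it was the 1 marker of its list past 2-fold, chosen after its values were seen. The members and lists were chosen with earlier results of these data known. The markers of osteoblasts, glands and endothelium were also computed: 1 of 4, 2 of 5 and 2 of 5 measured were at least 2-fold lower and 0, 2 and 0 higher. Alternatives were other scalings (deposited, quantile, and by the median signal or the median ratio of 12 reference genes, such as Actb and Hprt), floors, filters, an offset, no floor, other choices of probe set and other fold rules. The steps were tested on simulated data. Python 3.11.15, numpy 2.4.6, pandas 2.3.3 and matplotlib 3.10.9 were used.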

Additional observations from a re-analysis of the deposited data

How the results depend on the processing

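With 1 array per genotype, dissection, animal and hybridisation cannot be told apart from genotype, and signals near the floor limit Tcf21, Eya2, Msc and the second Eya1 probe set. The count of the 8 genes at least 2-fold higher, 0, became 1 (Eya1) with scaling on reference-gene signal and with the mean over all measured probe sets. At 1.5-fold 2 were higher and 1 lower. Over all measured genes, 474 were lower and 394 higher at 2-fold, 1320 and 1486 at 1.5-fold, and 131 and 56 at 3-fold. Scaling on the median signal of reference genes gave 232 and 1154, scaling on their median ratio 255 higher, the floor at the 60th percentile 264 and 257, and the filter at the 75th percentile 243 and 237. Lower genes made up 54.6% of those past 2-fold, 65.0% of them under the deposited scaling, and 16.7% and 72.2% under the reference-gene scalings by signal and by ratio. Of the pathway genes, 4 lower and 0 higher became 8 and 4 at 1.5-fold and 2 and 3 with scaling on reference-gene signal; 1 was lower at 3-fold and 2 without suffixed probe sets. The median of genes downstream of the Six-Eya complex was -0.22 without suffixed probe sets and with no filter. Scaling on reference-gene signal matched the median of 12 signals per array. Eef2, 1 of these reference genes, was 2.88-fold lower (60886 and 21162). It lay above Rplp0 (39637) in wild type but under Sdha (25405) on the other array. The middle signals that set this scaling thus did not come from the same genes on both arrays. The cause of the other shifts was not tested. No paired analysis was possible because each genotype had 1 array.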
